A study of Mus musculus with 44 samples.

Results

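The 10 genes described here encode transcription factors that build and run the red cell programme. They are Gata1, Gata2, Klf1, Nfe2, Tal1, Lmo2, Zfpm1, Gfi1b, Sox6 and Bcl11a, taken by name from the 18193 genes that had a probe set annotated with 1 symbol. A probe set is a group of short probes that report 1 transcript together. The 10 genes had 21 such probe sets: 1 each for Gata1, Klf1, Nfe2, Tal1, Lmo2 and Gfi1b, 2 each for Gata2 and Zfpm1, 4 for Sox6 and 7 for Bcl11a. Each gene was read from its brightest probe set, the one with the highest mean log2 value over the 44 arrays, and the others served as a check.

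The mice were B6C3F1, a cross of 2 inbred strains, and had received either 2-butoxyethanol (2BE), a glycol ether solvent that is haemolytic in rodents, or its vehicle. Arrays were made from liver, spleen and bone marrow. The liver at 4 h had 3 vehicle and 4 2BE arrays and the spleen at 4 h had 4 and 4. At 7 d the liver had 4 vehicle and 5 2BE arrays, the spleen 5 and 5 and the marrow of the humerus 5 and 5. All mice shared the strain and were killed under ketamine and acepromazine anaesthesia, so every vehicle group carried that exposure too. The titles set the groups. A separate treatment field lists 2BE mice as "reduced oxygen" and vehicle mice as "control". For dose, route, sex and age, no value is given in the sources used here. Nothing in the labels says whether each array is a separate animal, so p-values measure the spread between these samples only.

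Red cells arise from multipotent progenitors through a series of committed stages. GATA2 acts early, in stem cells and progenitors and also in mast cells and endothelium. As commitment proceeds GATA1 replaces it on chromatin, including at the Gata2 gene itself, an exchange known as the GATA switch. GATA1 works with its co-factor FOG1 (the product of Zfpm1) and with a complex of TAL1 and LMO2. KLF1, NFE2, SOX6 and BCL11A then govern globin, membrane and haem genes. In adult mice the marrow is the main site of this process and the spleen is a reserve that enlarges its share under anaemia.

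Because 8 of the 10 genes moved together in the spleen, the sequence in front of the start site is shown for 3 of them and for Gata2, which moved the other way. RefSeq windows on build GRCm38.p6 were matched by symbol for 8 of the 10 genes, all but Nfe2 and Lmo2, with 15 windows in all. The 250 bases before each start were searched on both strands for GATAA, a core GATA-factor motif, and for CACACCC, a core KLF1 motif. In the lines that follow, capitals mark a match to either motif or to its reverse complement, and each window is printed 5′ to 3′ on the gene's strand. Positions count back from -1, the last base before the start.
Klf1, chr8:84901732-84901981, plus strand: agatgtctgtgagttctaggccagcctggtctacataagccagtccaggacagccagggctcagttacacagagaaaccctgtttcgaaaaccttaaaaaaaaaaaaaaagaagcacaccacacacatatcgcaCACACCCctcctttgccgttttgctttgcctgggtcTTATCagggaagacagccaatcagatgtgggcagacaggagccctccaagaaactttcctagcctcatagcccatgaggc
Gfi1b, chr2:28621983-28622232, minus strand: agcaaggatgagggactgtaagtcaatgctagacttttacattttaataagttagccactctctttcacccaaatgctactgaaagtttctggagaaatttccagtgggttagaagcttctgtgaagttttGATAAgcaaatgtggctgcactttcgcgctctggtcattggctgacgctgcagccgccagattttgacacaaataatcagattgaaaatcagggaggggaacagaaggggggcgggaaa
Gata1, chrX:7967911-7968160, minus strand: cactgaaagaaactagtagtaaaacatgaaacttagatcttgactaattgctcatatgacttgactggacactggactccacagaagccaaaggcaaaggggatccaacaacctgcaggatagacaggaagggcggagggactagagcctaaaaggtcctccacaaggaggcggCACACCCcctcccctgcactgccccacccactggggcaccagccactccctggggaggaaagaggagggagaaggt
Gata2, chr6:88193641-88193890, plus strand: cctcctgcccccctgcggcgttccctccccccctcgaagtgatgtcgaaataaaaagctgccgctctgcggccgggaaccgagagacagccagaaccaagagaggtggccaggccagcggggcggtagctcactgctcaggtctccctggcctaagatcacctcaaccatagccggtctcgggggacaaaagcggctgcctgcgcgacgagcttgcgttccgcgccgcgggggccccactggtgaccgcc
The Klf1 window held CACACCC at -116 and GATAA, read as its reverse complement, at -80 from the start. The Gfi1b window held GATAA at -119. The Gata1 window, which lies before a start inside the gene's annotated span, held CACACCC at -76. Neither of the 2 Gata2 windows held either motif. The Zfpm1 window also held neither, although Zfpm1 rose, and so did some windows of Tal1 and Sox6. The 3 rising genes printed are among those with a match, so the printed windows do not compare rising with falling genes. Whether a motif goes with the direction of change was not tested. GATAA occurred in 5 windows of 4 of the genes (Gfi1b, Klf1, Sox6 and Tal1) and CACACCC in 3 windows of 3 of them (Gata1, Klf1 and Sox6). Over all 32851 RefSeq windows of the same length, 22.6% held GATAA and 6.93% held CACACCC, so the first is a common string. The other strings searched were CCACCC, in windows of Bcl11a, Gata1 and Zfpm1 (28.1% of all windows), and TGCTGA, in windows of Sox6, Tal1 and Zfpm1 (16.1% of all windows). CANNTG, the E-box that TAL1 dimers can read, was in 10 windows of 5 genes, against 66.2% of all windows, and AGGAAG was in the Gata1 window alone among the 15, against 29.5% of all windows. The CACACCC string contains no full CCACCC, and no string searched contains another, though matches may overlap. A match is a description of the letters and not a binding site.

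Summed intensity of 7 hepatocyte genes was 174800 to 212800 in the liver, and at most 3136 in the spleen and 718.7 in the marrow. That of 10 genes of neutrophils and their progenitors was 170900 to 188900 in the marrow, 9102 to 17780 in the spleen at 7 d and 20180 to 129100 in the spleen at 4 h, where the arrays differed widely. That of 6 T cell genes was 1786 to 6678 in the spleen at 7 d, above the marrow arrays at 1390 to 1760. Array medians were close within each set and ran from 41.2 to 42.5 (liver, 4 h) up to 109.4 to 111.7 (spleen, 7 d). Those of the spleen at 4 h (87.0 to 89.2) and of the marrow (86.2 to 89.6) overlapped. The 5 sets may have been normalized separately, so these sums across tissues are a rough check of the labels, and levels of the factors are compared only within a set. No 2 of the 44 arrays were identical. One spleen array stands apart: vehicle replicate 1 at 7 d had the lowest value of its group in 8 of 8 of the factors other than Gata2 and Bcl11a. The fold changes of these 8 and of Gata2 in that set are given with and without it. Those of the gene lists are given with it only.

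At 7 d in the spleen, 8 of the 10 factors rose with 2BE, Gata2 fell, and Bcl11a did not pass the test on its main probe set. The rises ran from 2.30-fold for Lmo2 to 12.6-fold for Sox6, with all 5 2BE arrays above all 5 vehicle arrays in each of the 8. Gata2 was 1.25-fold lower, and no 2BE array reached the lowest vehicle array. Changes were tested with limma, a linear model fitted over all genes, with Benjamini-Hochberg (BH) adjustment over 18193 genes and a threshold of 0.05. This comparison changed most of the transcriptome: 64.4% of all genes passed in either direction, 32.4% higher and 32% lower. All 2BE arrays lay above all vehicle arrays for 20% of genes and below them for 26.7%. The median log2 fold change was 2.57 over the 10 factors and 0.051 over all genes. In bulk tissue a change in the share of cells that express a gene and a change in RNA per cell cannot be told apart, and this holds for every result here.

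**Figure D1:**
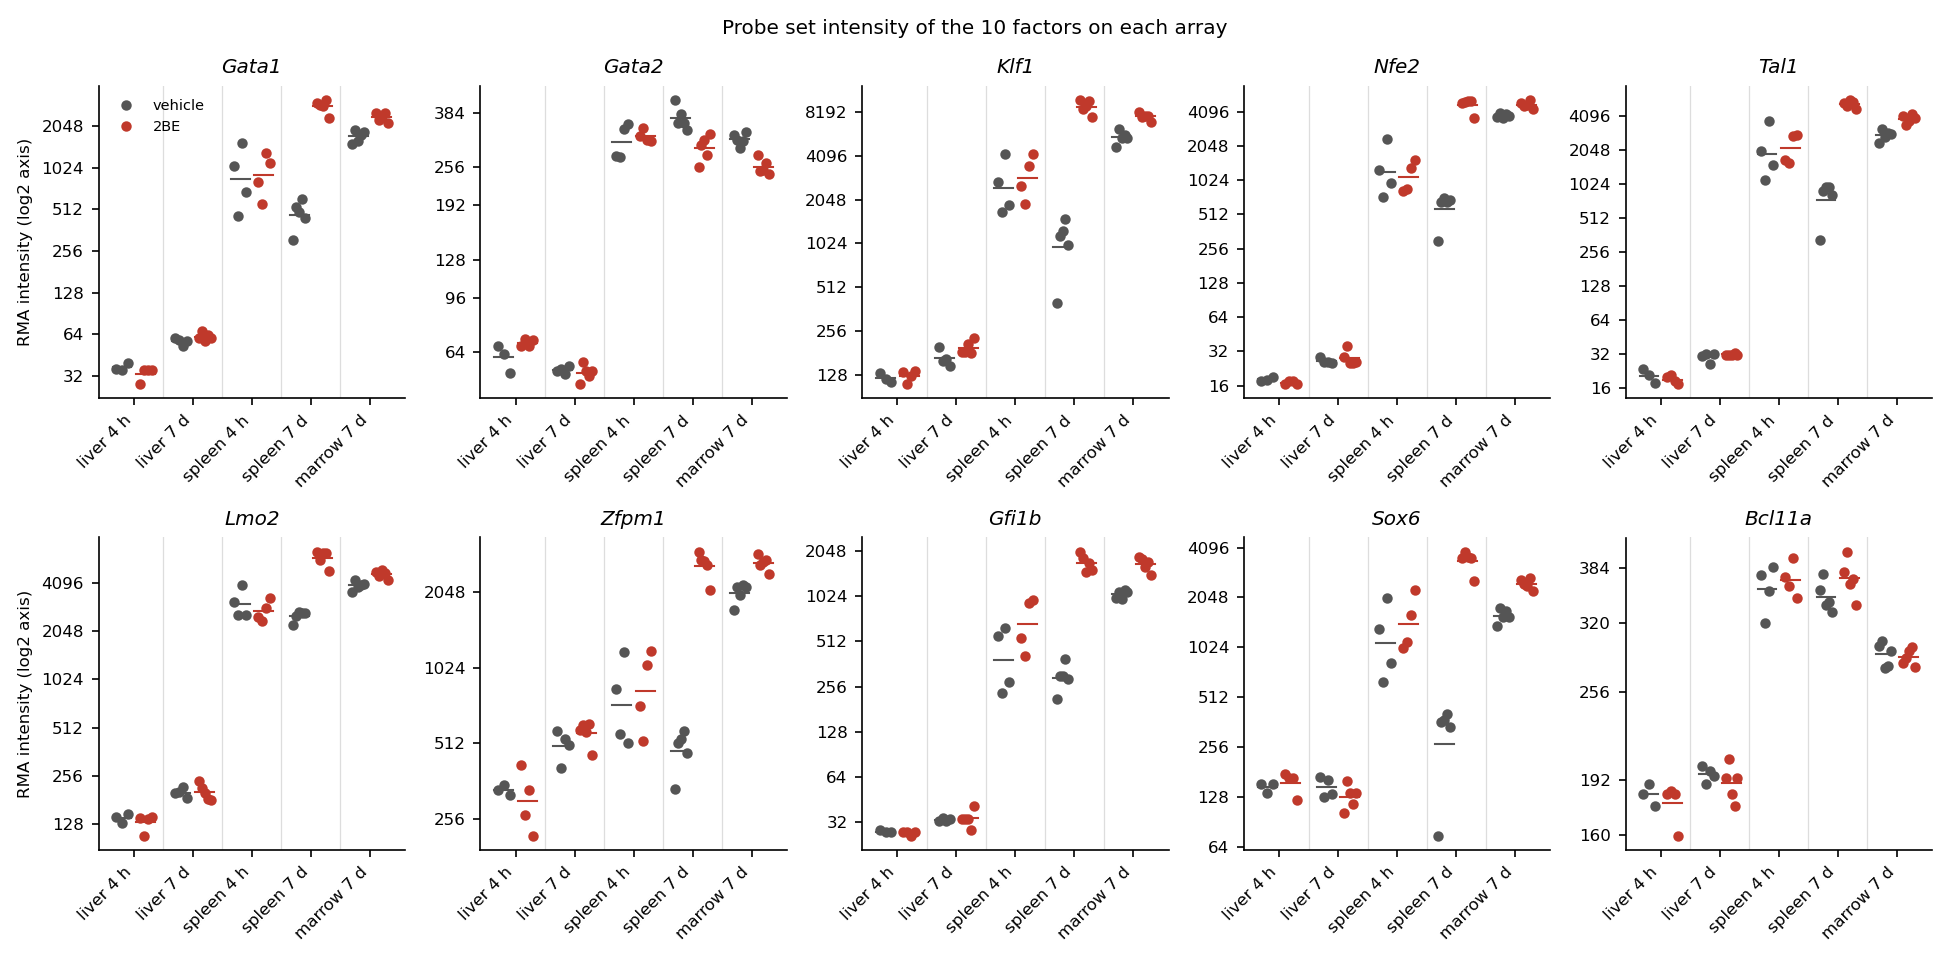
Intensity (linear units, log2 axis) of the main probe set of each factor on every array, in 5 tissue and time sets, with vehicle in grey, 2BE in red and a line at the mean of log2 values. In the spleen at 7 d the 2BE points of 8 factors lie above all vehicle points, Gata2 lies below them, and the 2 groups of Bcl11a overlap.

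GATA1, the zinc finger factor that erythroid maturation requires, was represented by 1 probe set. Gata1 read 309, 531, 492, 606 and 443 on the 5 vehicle arrays of the spleen at 7 d and 3001, 2913, 2823, 3134 and 2328 on the 5 2BE arrays. The lowest 2BE array, at 2328, was far above the highest vehicle array, at 606. Its log2 fold change was 2.60 ± 0.27 (SE; 6.07-fold, limma BH-adjusted p = 2.46e-07).

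Zfpm1 encodes FOG1, the protein that binds GATA1 and is needed for many of its effects. It read 336, 512, 530, 572 and 470 with vehicle and 2977, 2751, 2738, 2631 and 2095 with 2BE. The groups did not overlap, and the change was 5.49-fold (log2 2.46 ± 0.23 SE, limma BH-adjusted p = 8.88e-08). The second probe set of Zfpm1 was dimmer, from 97.5 to 170 with vehicle and from 636 to 953 with 2BE, and gave a similar log2 fold change of 2.50 ± 0.21.

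Gfi1b encodes a zinc finger repressor of erythroid and megakaryocytic cells. It read 213, 301, 301, 391 and 287 with vehicle and 2030, 1837, 1494, 1712 and 1539 with 2BE. All 5 2BE arrays were higher, by 5.82-fold (log2 2.54 ± 0.26 SE, limma BH-adjusted p = 2.5e-07).

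TAL1 and LMO2 are parts of 1 DNA-binding complex: TAL1 is a basic helix-loop-helix protein and LMO2 the LIM-only protein that bridges it to GATA1. Tal1 read 324, 891, 955, 953 and 816 with vehicle and 5298, 5027, 5610, 5387 and 4654 with 2BE, a 7.04-fold rise (log2 2.82 ± 0.30 SE, limma BH-adjusted p = 3.2e-07). Lmo2 read 2249, 2547, 2678, 2641 and 2654 with vehicle and 6410, 5712, 6272, 6272 and 4848 with 2BE, a 2.30-fold rise (log2 1.20 ± 0.12 SE, limma BH-adjusted p = 1.19e-07). Neither gene's groups overlapped. Lmo2 had the smallest of the 8 rises: its 95% interval ended at 1.45 on the log2 scale, and that of the next smallest, Zfpm1, began at 1.98. LMO2 is also made by endothelial and progenitor cells.

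KLF1, NFE2 and SOX6 act on globin and on genes of the mature red cell. Klf1, which encodes an activator of adult beta-globin, read 401, 1145, 1249, 1514 and 997 with vehicle. With 2BE it read 9899, 8667, 9069, 9741 and 7562, a 9.20-fold rise (log2 3.20 ± 0.30 SE, limma BH-adjusted p = 1.06e-07). The highest vehicle array and the lowest 2BE array were far apart, at 1514 and 7562.

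Nfe2 encodes the large subunit of NF-E2, which pairs with a small Maf protein and binds the beta-globin locus control region. It read 298, 662, 710, 661 and 683 with vehicle and 4909, 4999, 5071, 5135 and 3605 with 2BE. Again no arrays overlapped, and the rise was 8.16-fold (log2 3.03 ± 0.28 SE, limma BH-adjusted p = 8.05e-08).

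Sox6 encodes an SRY-box factor that promotes red cell maturation and represses embryonic globin together with BCL11A. It read 74.9, 362, 371, 403 and 339 with vehicle and 3559, 3864, 3600, 3540 and 2566 with 2BE. Its vehicle group was the most uneven of the 10, with replicate 1 at 74.9 and the other 4 arrays at 339 to 403. The rise was 12.6-fold (log2 3.66 ± 0.39 SE, limma BH-adjusted p = 3.23e-07). Without vehicle replicate 1 the log2 fold change was 3.20. All 4 probe sets of Sox6 rose, by 3.14 to 4.01 on the log2 scale, with no overlap in any (limma BH-adjusted over 34945 probe sets, of which 30.3% rose).

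**Figure D2:**
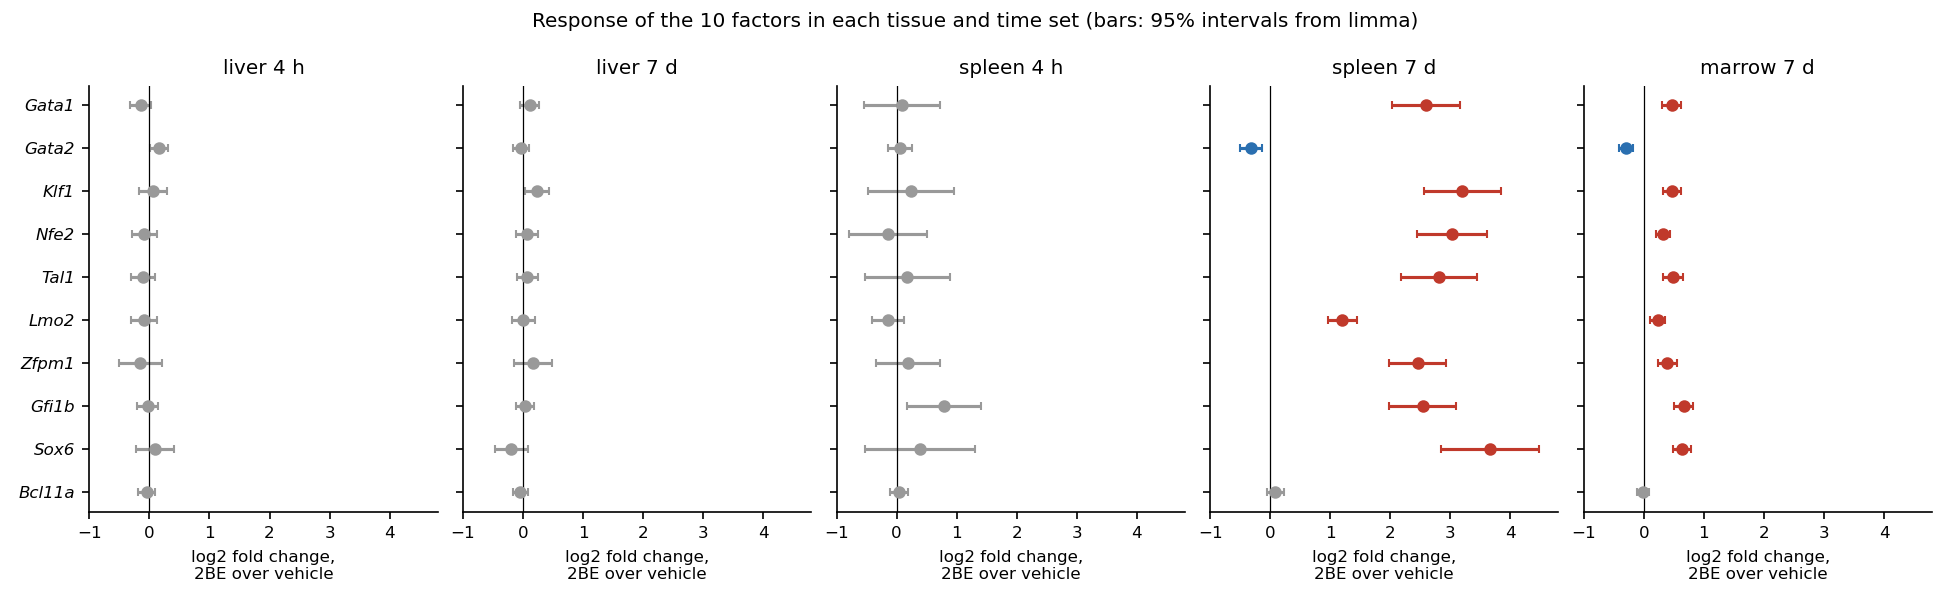
log2 fold change of 2BE over vehicle for each factor in each tissue and time set, with limma's 95% intervals, in red where higher, in blue where lower and in grey where not called. The spleen at 7 d and the marrow have 8 red and 1 blue point each, and the other 3 sets have grey points alone.

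Gata2, the early factor, moved the other way and by far less. On the 5 vehicle arrays of the spleen at 7 d it read 422, 356, 382, 355 and 339, and on the 2BE arrays 257, 302, 315, 280 and 329. The 2 groups did not overlap, but the highest 2BE array and the lowest vehicle array were close, at 329 and 339. The log2 fold change was -0.32 ± 0.086 SE (limma BH-adjusted p = 0.00311). After a further quantile normalization of the set it was -0.18, with a limma BH-adjusted p of 0.0768, and no longer passed. The second probe set of Gata2 read 161, 172, 173, 172 and 160 with vehicle and 172, 133, 142, 160 and 164 with 2BE. Those groups overlapped, and its change of -0.12 ± 0.093 SE did not pass (limma adjusted p = 0.268).

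Bcl11a encodes a zinc finger repressor that silences fetal-type globin and is also required for B cell development. Its 7 probe sets did not give 1 answer. The main probe set read 357, 376, 340, 343 and 332 with vehicle and 379, 405, 365, 371 and 339 with 2BE in the spleen at 7 d. These groups overlapped and the change of 0.087 ± 0.064 SE did not pass (limma BH-adjusted p = 0.239). After a further quantile normalization it rose by 0.23 and passed (limma BH-adjusted p = 0.0137). This probe set also stood apart in the liver, where its group means were 178 to 196 while those of the other 6 lay between 9.35 and 20.9.

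Of the 7 Bcl11a probe sets, 5 fell in the spleen at 7 d (limma BH-adjusted over 34945 probe sets, of which 30.4% fell). The probe set with the highest mean on the linear scale read 1846, 1505, 1665, 1552 and 1748 with vehicle and 801, 521, 965, 801 and 1137 with 2BE. All its 2BE arrays were lower, by 1.02 ± 0.16 SE on the log2 scale (limma adjusted p = 2.36e-05). The one with the second highest mean on these vehicle arrays read 1333, 1060, 1154, 1045 and 1130 with vehicle and 608, 426, 704, 678 and 904 with 2BE, also without overlap, and fell by 0.82 ± 0.16 (limma adjusted p = 0.000229). The other 3 fell by 0.52, 0.47 and 0.31, the last with overlapping groups. The seventh was dim and did not pass. With the mean of all 7, Bcl11a fell by 0.44 (limma BH-adjusted p = 0.000298). In the same arrays 9 of 9 measured B cell markers fell, against 32% of all genes, with a summed intensity of 36420 to 43130 with vehicle and 7431 to 19440 with 2BE, and their part in the Bcl11a values was not tested. In the marrow 0 of the 7 Bcl11a probe sets passed in limma, with log2 fold changes of -0.26 to 0.27, against 8.16% of all probe sets higher and 9.37% lower, and 9 of 9 B cell markers fell there too (10.7% of all genes).

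**Figure D3:**
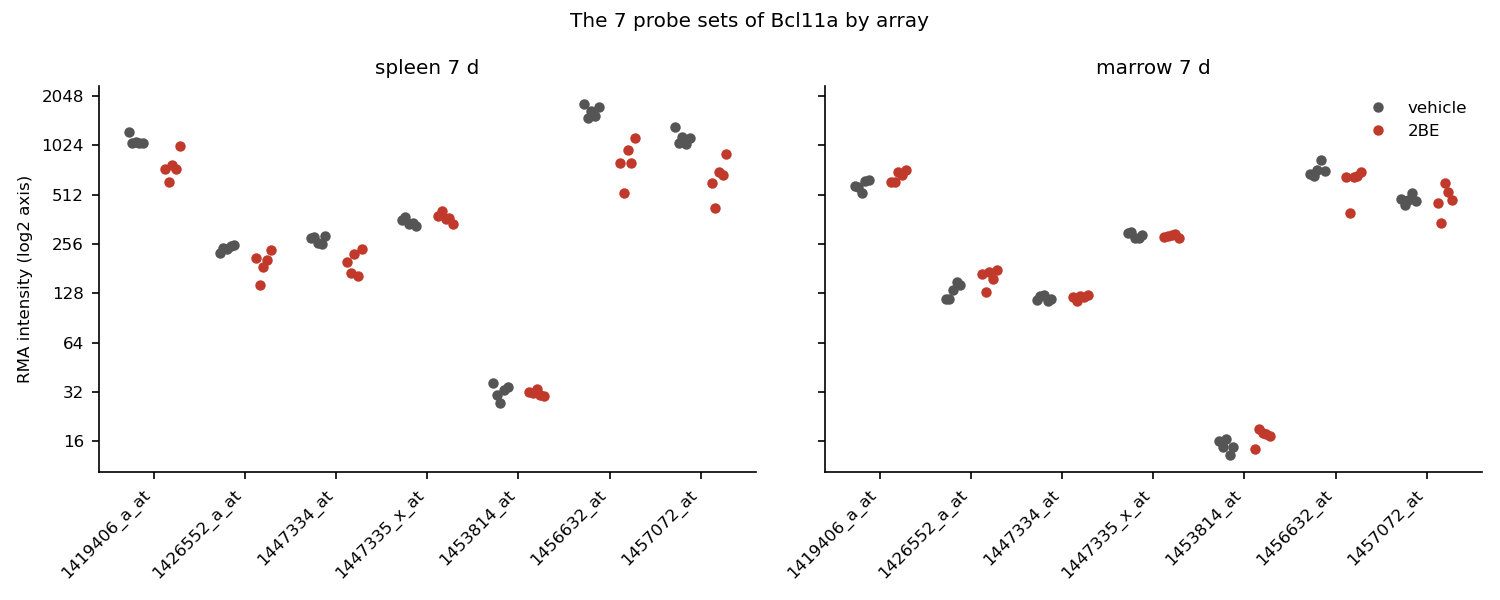
Intensity (linear units, log2 axis) of the 7 Bcl11a probe sets on each array of the spleen and the marrow at 7 d, with vehicle in grey and 2BE in red. In the spleen 4 of the probe sets are lower on every 2BE array than on any vehicle array, while the main one, the fourth from the left, overlaps; in the marrow no probe set passed the test.

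Within the spleen groups at 7 d the factors varied together. Vehicle replicate 1 was the lowest array for all 8 factors other than Gata2 and Bcl11a, and the highest for Gata2. It was also lowest for the genes these factors act on: their mean log2 value was 8.81 on this array and 9.91 to 10.1 on the other 4. Among the 2BE arrays, replicate 5 was the lowest for 7 of the 8 and the highest for Gata2, at 329. Without vehicle replicate 1, 9 factors still passed, with 8 higher and Gata2 lower. The log2 fold changes were then 2.45 for Gata1, 2.88 for Klf1, 2.79 for Nfe2, 2.52 for Tal1, 1.16 for Lmo2, 2.33 for Zfpm1 and 2.43 for Gfi1b. Gata2 was at -0.28 (limma BH-adjusted p = 0.0117).

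In the marrow at 7 d the same 8 factors rose and Gata2 fell, by much smaller amounts. The rises ran from 1.18-fold for Lmo2 to 1.59-fold for Gfi1b. In this set 20.1% of all genes passed, 9.4% higher and 10.7% lower. All 2BE arrays lay above all vehicle arrays for 7 of the 10 factors, against 7.55% of all genes, and below them for Gata2, against 8.45% of all genes. The median log2 fold change was 0.43 over the 10 factors and 0.0067 over all genes.

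Gfi1b read 1003, 1095, 989, 1126 and 1091 on the vehicle arrays of the marrow and 1859, 1823, 1598, 1746 and 1415 on the 2BE arrays, with no overlap. Its log2 fold change was 0.67 ± 0.075 SE (1.59-fold, limma BH-adjusted p = 4.45e-05). Sox6 read 1381, 1757, 1552, 1702 and 1562 with vehicle and 2615, 2465, 2399, 2667 and 2234 with 2BE, a change of 0.64 ± 0.071 SE (1.56-fold, limma BH-adjusted p = 4.19e-05). Both were separated by wide gaps, and all 4 Sox6 probe sets passed, at 0.57 to 0.78, where 8.16% of all probe sets rose.

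Gata1 read 1519, 1912, 1584, 1765 and 1844 with vehicle in the marrow and 2537, 2263, 2417, 2546 and 2151 with 2BE. Its change was 0.47 ± 0.073 SE (1.38-fold, limma BH-adjusted p = 0.000504). Klf1 read 4737, 6316, 5474, 5710 and 5450 with vehicle and 8254, 7624, 7693, 7705 and 7017 with 2BE, a change of 0.47 ± 0.072 SE (1.39-fold, limma BH-adjusted p = 0.000406). In both, every 2BE array was above every vehicle array.

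Tal1 read 2351, 3090, 2668, 2873 and 2827 with vehicle in the marrow and 4069, 3407, 3667, 4268 and 3867 with 2BE, and rose by 0.48 ± 0.078 SE on the log2 scale (limma BH-adjusted p = 0.000635). Zfpm1 read 1734, 2154, 2008, 2190 and 2160 with vehicle and 2921, 2634, 2716, 2746 and 2415 with 2BE, and rose by 0.39 ± 0.072 SE (limma BH-adjusted p = 0.00162). Nfe2 read 3689, 3973, 3582, 3887 and 3767 with vehicle and 4887, 4639, 4649, 5170 and 4321 with 2BE, and rose by 0.32 ± 0.057 SE (limma BH-adjusted p = 0.00122). None of these 3 overlapped.

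Lmo2 was the only one of the 8 whose marrow groups overlapped: 3582, 4298, 3884, 3995 and 4020 with vehicle and 4806, 4493, 4935, 4722 and 4267 with 2BE. The overlap was between 1 vehicle array at 4298 and 1 2BE array at 4267. Its log2 fold change was 0.23 ± 0.060 SE (1.18-fold, limma BH-adjusted p = 0.0144).

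Gata2 fell in the marrow on both of its probe sets, where 9.37% of all probe sets fell. The main one read 325, 314, 295, 310 and 332 with vehicle and 280, 248, 251, 264 and 244 with 2BE, with no overlap. Its log2 fold change was -0.29 ± 0.055 SE (1.22-fold lower, limma BH-adjusted p = 0.00201). The second read 249 to 259 with vehicle and 182 to 236 with 2BE, also without overlap, and changed by -0.24 ± 0.067 SE (limma adjusted p = 0.0252). A further quantile normalization gave -0.25 for the main probe set, which still passed (limma BH-adjusted p = 0.00288). The main Bcl11a probe set read 277 to 302 with vehicle and 278 to 296 with 2BE, a change of -0.014 ± 0.048 SE that did not pass (limma BH-adjusted p = 0.877).

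The 8 factors that rose are called late here only in contrast to Gata2, although LMO2, for example, is also made by progenitor cells. They were grouped by their rise in these data, and Bcl11a, whose main probe set did not pass, is not among them. That the late factors rose is therefore no test of early against late factors. The response of these 8 factors was larger in the spleen than in the marrow, and that of Gata2 was not shown to differ. The difference of the responses, marrow minus spleen at 7 d, was tested by a limma contrast with BH adjustment over all genes. It was negative and passed for 8 of the 10 factors, against 43.5% of all genes in either direction and 18.9% in this one. On the log2 scale it was -3.02 ± 0.41 SE for Sox6, -2.73 ± 0.30 for Klf1, -2.71 ± 0.23 for Nfe2, -2.33 ± 0.28 for Tal1 and -2.13 ± 0.18 for Gata1. Zfpm1 was at -2.06 ± 0.16, Gfi1b at -1.88 ± 0.16 and Lmo2 at -0.97 ± 0.11. For Gata2 the difference was 0.031 ± 0.099 SE (limma BH-adjusted p = 0.818), with changes of -0.29 in the marrow and -0.32 in the spleen side by side. Bcl11a on its main probe set was at -0.10 ± 0.075 SE (limma BH-adjusted p = 0.284). In log2 terms the marrow rise of the 8 was 10.7% (Nfe2) to 26.2% (Gfi1b) of the spleen rise.

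At 4 h no factor passed the test in the spleen, and the spread between arrays was wide. In this set 5.16% of all genes passed. The log2 fold changes of the 10 ran from -0.14 to 0.79, all groups overlapped, and 1 factor had an unadjusted p under 0.05. Over all genes, 4.78% had all 2BE arrays above all vehicle arrays and 6.95% below. The 1 factor was Gfi1b, which read 553, 230, 627 and 275 with vehicle and 540, 409, 921 and 961 with 2BE, a log2 difference of 0.79 ± 0.30 SE (limma BH-adjusted p = 0.148). Without vehicle replicate 3 the difference was 1.02 and passed (limma BH-adjusted p = 0.0452).

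Spleen arrays of 1 group at 4 h differed widely from each other. Gata1 read 1053, 457, 1552 and 680 with vehicle and 805, 558, 1310 and 1103 with 2BE. Vehicle replicate 3 was the highest of its group for 8 of 8 factors other than Gata2 and Bcl11a, and replicate 2 the lowest for 6. Among the 2BE arrays, replicate 4 was the highest for 7 and replicate 2 the lowest for 6. Gata2 was steadier, at 278, 275, 341 and 354 with vehicle and 324, 344, 314 and 311 with 2BE. The mean log2 value of the target genes also varied, from 10.5 on vehicle replicate 2 to 11.5 on vehicle replicate 3.

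The response in the spleen differed between 7 d and 4 h for 9 of the 10 factors by a limma contrast with BH adjustment (51.3% of all genes passed, 25.6% in each direction). It was higher at 7 d for 8 factors, by 1.35 ± 0.17 SE on the log2 scale for Lmo2 to 3.27 ± 0.59 for Sox6. It was lower at 7 d for Gata2, by -0.38 ± 0.13 SE (limma BH-adjusted p = 0.0195). After a further quantile normalization the Gata2 difference was -0.20 and did not pass (limma BH-adjusted p = 0.198). On its main probe set Bcl11a did not pass either, at 0.043 ± 0.097.

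In the liver 0 of the 10 factors passed at either time. At 4 h 4.51% of all genes passed in limma, the log2 fold changes of the 10 ran from -0.15 to 0.16, and 1 factor had an unadjusted p under 0.05. That factor was Gata2, which read 67.1, 63.2 and 54.9 with vehicle and 67.1, 70.4, 67.1 and 70.3 with 2BE (log2 difference 0.16 ± 0.070 SE, limma BH-adjusted p = 0.244). At 7 d 0.748% of all genes passed, the range was -0.20 to 0.23, and Klf1 alone had an unadjusted p under 0.05. Klf1 read 200, 160, 163 and 147 with vehicle and 183, 183, 207, 180 and 230 with 2BE (log2 difference 0.23 ± 0.095 SE, limma BH-adjusted p = 0.353). The groups of all 10 factors overlapped at both times, while over all genes 6.6% lay wholly above and 4.49% wholly below at 4 h, and 3.05% and 2.28% at 7 d.

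Several factors were dim in the liver. Vehicle means of Nfe2, Tal1 and Gfi1b were below the median of all probe sets at both times, as was that of Gata1 at 4 h. In 10 of 40 combinations of factor and liver group at least 2 arrays held the same value, against 0 of 60 in the spleen and marrow. Tal1, for example, read 31.4 on 4 of the 5 2BE arrays at 7 d. The response at 7 d was higher in the spleen than in the liver for 8 factors, by 1.20 ± 0.12 SE (Lmo2) to 3.85 ± 0.45 (Sox6), where 54.2% of all genes differed, 25.9% higher and 28.3% lower (limma contrast, BH-adjusted). It was lower for Gata2, by -0.29 ± 0.10 SE (limma BH-adjusted p = 0.0219), a difference that did not pass after a further quantile normalization (-0.14, limma BH-adjusted p = 0.229) or with the replicate number as a block (-0.29, limma BH-adjusted p = 0.0636). Bcl11a on its main probe set differed by 0.13 ± 0.084 SE, which did not pass (limma BH-adjusted p = 0.195), but passed after the further quantile normalization at 0.29 (limma BH-adjusted p = 0.0281). The 3 contrasts between sets share the spleen arrays at 7 d.

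The early factor was next set against each other factor within an array, as log2 of Gata2 minus log2 of the other gene. This ratio follows change only: it does not compare levels of different genes. Since Gata2 itself fell at 7 d, a gene that does not change also gives a lower ratio, and the ratio was therefore computed for all 18192 other genes too. Where Gata2 fell and a partner rose, both without overlap, a lower ratio without overlap and the smallest possible p were fixed in advance. For those partners the ratio restates the 2 fold changes and is no further test. In the spleen at 7 d the ratio fell for 9 of 9 partners, with Bcl11a on its main probe set, against 56.5% of all genes. The median over all genes was -0.37. It fell without overlap for 8 of the 9, against 40.3% of all genes. The log2 change was -3.98 against Sox6, -3.52 against Klf1, -3.35 against Nfe2 and -3.14 against Tal1. Against Gata1 it was 0.45, -0.58, -0.37, -0.77 and -0.38 with vehicle and -3.54, -3.27, -3.16, -3.48 and -2.82 with 2BE. The 2 groups were far apart, with means of -0.33 ± 0.46 (SD, n = 5) and -3.25 ± 0.29 (SD, n = 5). The change was -2.92 ± 0.24 SE (exact permutation test, two-sided, p = 0.00794, the smallest that 5 against 5 arrays allow, and 0.0152 after BH adjustment over all genes).

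Against Zfpm1, Gfi1b and Lmo2 the ratio changed by -2.78, -2.86 and -1.53, each at the same exact p. Against Bcl11a it fell by 0.41 ± 0.11 SE with overlapping groups (exact permutation test, p = 0.0159, 0.0255 after BH adjustment over all genes). This is close to the median of all genes, and the log2 fold changes of Bcl11a and Gata2 themselves were 0.087 and -0.32. The Bcl11a value is that of its main probe set. On its probe set of highest linear mean Bcl11a fell by 1.02, more than Gata2, so the fall of this ratio depends on the probe set.

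In the marrow the ratio also fell for 9 of 9 partners, all without overlap and with Bcl11a again on its main probe set. Of all genes 69.5% fell and 45.7% fell without overlap. The median over all genes was -0.30. The changes ran from -0.96 ± 0.068 SE against Gfi1b to -0.28 ± 0.045 against Bcl11a, whose own log2 fold change was -0.014. Against Gata1 the mean was -2.44 ± 0.14 (SD, n = 5) with vehicle and -3.20 ± 0.058 (SD, n = 5) with 2BE, a change of -0.76 ± 0.068 SE (exact permutation test, two-sided, p = 0.00794, 0.017 after BH adjustment over all genes). In the spleen at 4 h the changes ran from -0.73 to 0.20 (exact permutation tests, smallest p = 0.2, where 4 against 4 arrays allow 0.0286). In the liver the changes ran from 0.064 to 0.31 at 4 h and from -0.26 to 0.17 at 7 d, with an exact permutation p under 0.05 for 3 and 1 of the 9, of which none passed after BH adjustment over the pairs.

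**Figure D4:**
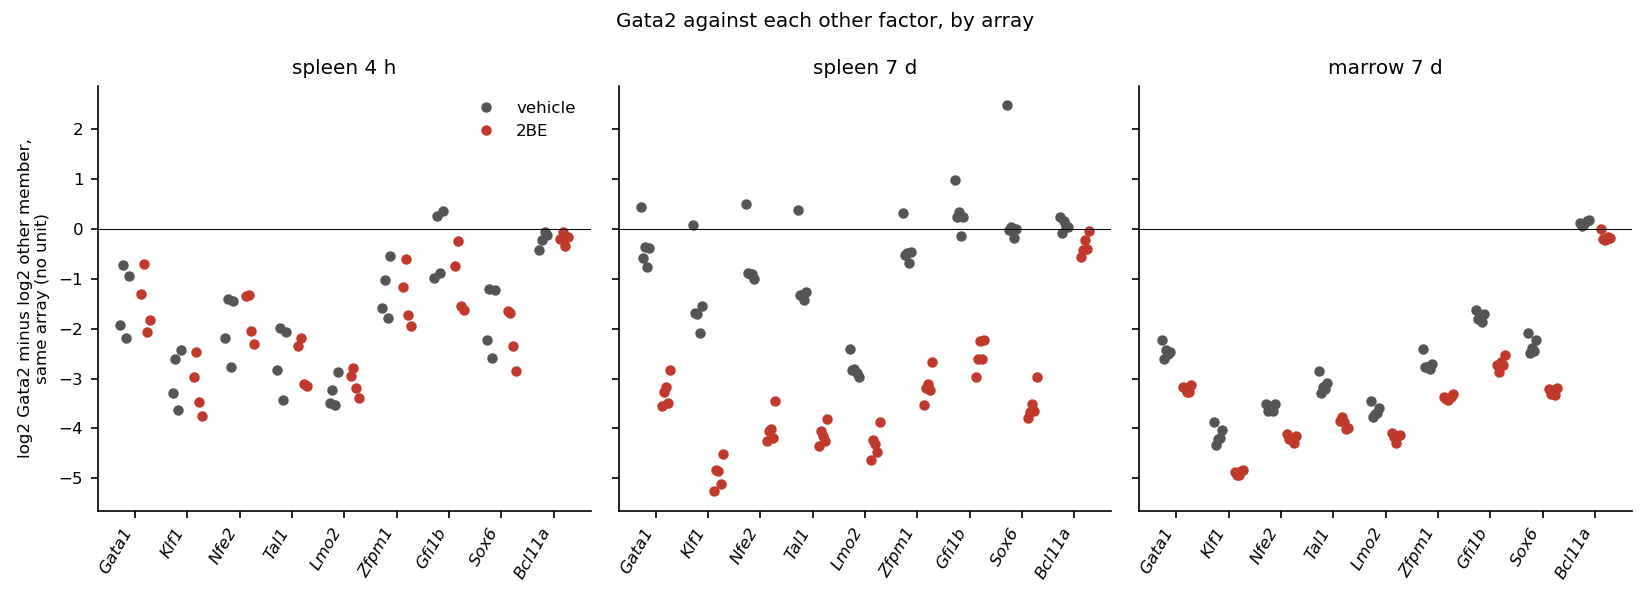
log2 Gata2 minus log2 of each other factor on every array of the spleen at 4 h, the spleen at 7 d and the marrow at 7 d, with vehicle in grey and 2BE in red. At 7 d the 2BE points lie below the vehicle points for all partners except Bcl11a in the spleen, where they overlap; at 4 h they overlap for all 9.

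Genes that GATA1 and KLF1 are known to act on rose in the spleen and the marrow at 7 d, as did the factors other than Gata2 and Bcl11a. Of 27 measured target genes, 27 rose and 0 fell in the spleen at 7 d (limma BH-adjusted), where 32.4% of all genes rose, with a median log2 fold change of 2.68 against 0.051 for all genes. Epb42, which encodes the membrane protein 4.2, rose by 3.81 ± 0.27 SE, and Kel, the Kell blood group protein, by 3.63 ± 0.32. Icam4, the Landsteiner-Wiener antigen, rose by 3.57 ± 0.32, and Rhag, an ammonium channel of the Rh complex, by 3.40 ± 0.33. Their summed intensity was 24810 to 61770 with vehicle and 197300 to 243500 with 2BE. In the marrow 24 of 27 rose and 0 fell, where 9.4% of all genes rose, with a median of 0.45 against 0.0067 for all genes, among them Rhag (0.72 ± 0.073 SE), Tmod1, which encodes tropomodulin (0.71 ± 0.085), Ank1, ankyrin (0.65 ± 0.079), and Tfrc, the transferrin receptor (0.64 ± 0.054). At 4 h in the spleen 0 of 27 passed, where 5.16% of all genes passed in either direction. In the liver, where no factor passed, 1 of 27 rose at 4 h and 3 of 27 rose at 7 d, and 0 fell. There 4.51% of all genes passed in either direction at 4 h and 0.748% at 7 d. The counts at 4 h, in spleen and liver, are near these shares and are no result about the list.

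At 7 d in the spleen 11 of 30 co-factors and partner factors rose and 9 fell, with a median of 0.017. These shares are near those of all genes, 32.4% and 32%, so the counts are no result about the list, and its members are named for their own values. E2f2, a cell cycle factor of terminal erythroid divisions, rose by 2.22 ± 0.19 SE, the Myc antagonist Mxi1 by 1.67 ± 0.17, and Foxo3, which governs oxidative stress genes in red cell precursors, by 1.51 ± 0.14. E2f4 rose by 1.25 ± 0.10. Bcl11b, the T cell relative of Bcl11a, fell by 1.44 ± 0.20 SE, Lmo4, a relative of Lmo2, by 0.80 ± 0.086, and the cytokine signal transducer Stat5b by 0.58 ± 0.079. Cbfa2t3, a co-repressor that joins the TAL1 complex, fell by 0.48 ± 0.13. In the marrow 6 of 30 rose and 6 fell, where 9.4% of all genes rose and 10.7% fell. There Klf3, a repressor related to Klf1, rose by 0.51 ± 0.090 SE and Foxo3 by 0.44 ± 0.074, while the E-proteins that pair with TAL1, Tcf3 and Tcf12, fell by 0.39 ± 0.075 and 0.37 ± 0.074. In the spleen at 4 h, where 5.16% of all genes passed, 2 of 30 rose and 1 fell: Bach1, the haem-sensing repressor that also pairs with small Maf proteins, rose by 0.62 ± 0.079, Nfe2l2, which encodes the antioxidant factor NRF2, by 0.42 ± 0.097, and Zbtb7b, a factor of CD4 T cells, fell by 0.30 ± 0.071.

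Of 18 factors of other lineages and of progenitors, 13 fell and 3 rose in the spleen at 7 d, where 32% of all genes fell and 32.4% rose, with a median of -0.77. Fli1, a megakaryocytic and endothelial ETS factor, fell by 1.55 ± 0.15 SE, Hhex by 1.30 ± 0.16, the stem cell factor Meis1 by 1.25 ± 0.11, and Spi1, which encodes PU.1, the myeloid factor that opposes GATA1, by 1.20 ± 0.12. The 3 that rose were Hoxa9 (0.37 ± 0.095), Lyl1, a relative of Tal1 (0.31 ± 0.077), and Runx1 (0.30 ± 0.072). Myb, a progenitor factor, had a difference of 0.50 that did not pass. In the marrow 7 of 18 fell and 11 did not pass, where 10.7% of all genes fell, with Myb falling by 0.71 ± 0.094 SE, followed by Erg (0.31 ± 0.075), Etv6 (0.30 ± 0.063) and Hhex (0.27 ± 0.052). Earlier, at 4 h in the spleen, Myc rose by 0.64 ± 0.16 and Meis1 fell by 0.47 ± 0.13. Lyl1, Runx1 and Ikzf1 belong to both this list and that of the partner factors.

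**Figure D5:**
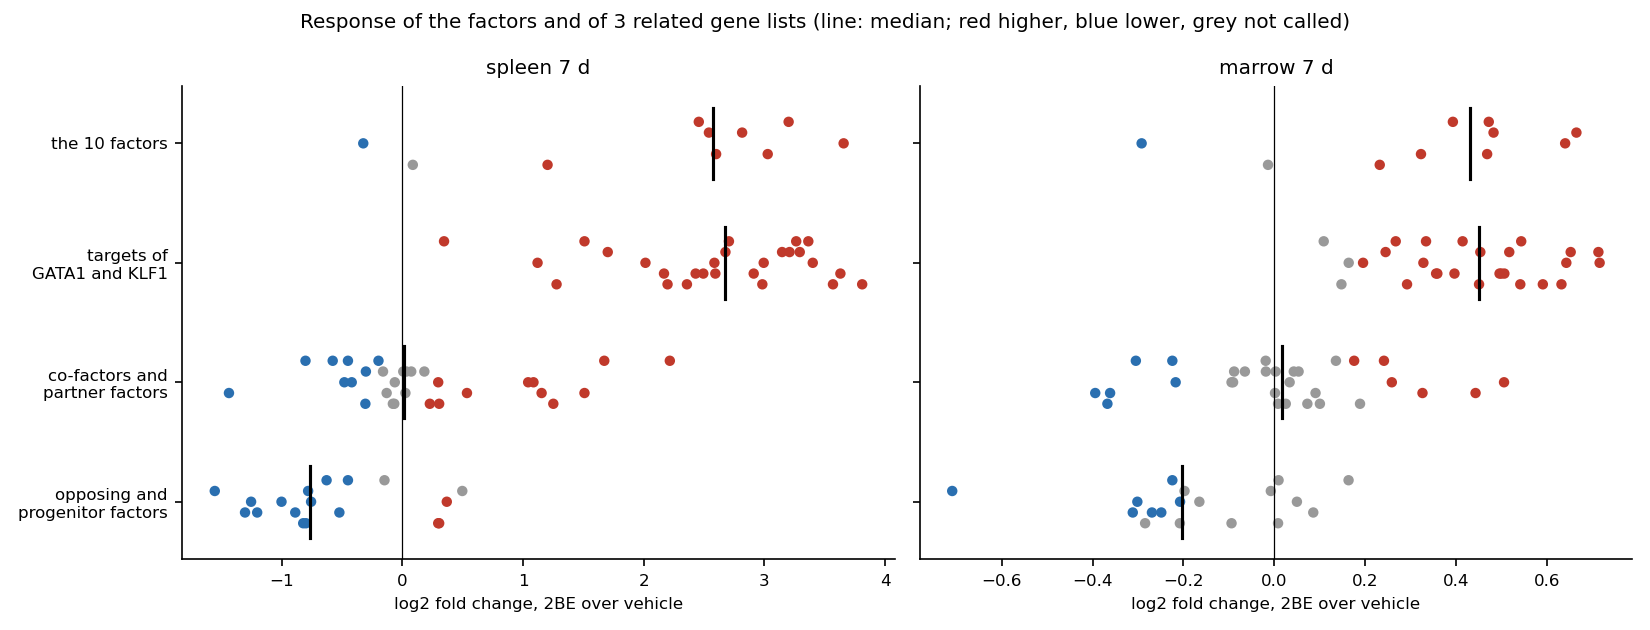
log2 fold change of 2BE over vehicle for the 10 factors and for the genes of 3 lists in the spleen and the marrow at 7 d, with a line at each median, on axes of different length. The medians in the spleen are 2.57 for the 10 factors, 2.68 for the target genes, 0.017 for the partner factors and -0.77 for the opposing and progenitor factors.

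Markers of other cells that use some of these factors changed in the same spleens, where 32% of all genes fell and 32.4% rose. Megakaryocytes, which also use GATA1, FOG1, GFI1B, TAL1 and NFE2, were represented by 10 markers, of which 9 fell and 0 rose at 7 d. Their summed intensity was 10940 to 15670 with vehicle and 5414 to 6915 with 2BE. Endothelial markers, whose cells use GATA2, TAL1 and LMO2, fell in 10 of 10 genes, from 6397 to 7863 summed with vehicle to 3535 to 4489 with 2BE. Of 8 markers of stem and progenitor cells 5 fell and 1 rose, with a sum of 2365 to 2567 and 1628 to 2042. Basophil and mast cell markers, whose cells depend on GATA2, did not pass in any of 8 genes, with overlapping sums of 481.8 to 578.2 and 456.4 to 546.5. No marker was at 0, since array intensities have a floor above it. The part of each cell type in the Gata2 and Lmo2 values was not tested.

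In the marrow, where 10.7% of all genes fell, 2 of 10 endothelial markers fell, 0 of 10 megakaryocyte markers and 0 of 8 stem and progenitor markers passed, and of 8 basophil and mast cell markers 3 fell, 1 rose and 4 did not pass, with a median of -0.10. Differences between the tissues in these lists were not tested. The basophil and mast cell genes ran from Mcpt8, a basophil protease gene, which fell by 0.34 ± 0.075 SE on the log2 scale (limma BH-adjusted p = 0.00538), to Tpsb2, a mast cell tryptase gene, which rose by 0.28 ± 0.066 (limma BH-adjusted p = 0.00784). Summed basophil and mast cell intensity was 3215 to 4097 with vehicle and 2958 to 3405 with 2BE, and its part in the Gata2 change was not tested.

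Genes with the pattern most like each of 5 factors were found by Pearson correlation over the 44 arrays after each set's vehicle mean was subtracted, as a description without a test. The arrays share groups and controls, so the points are not independent. Nearest to Gata1 were Kif4, Ska1, Ifrd2, Urod and Rad51ap1 (r = 0.985 to 0.987), of which Urod is a haem synthesis gene and Kif4 and Ska1 serve mitosis. Nearest to Klf1 were Cldn13, Ccna2, Urod, Kel and Ctse (0.990 to 0.993), and nearest to Sox6 were Icam4, Ermap, Cldn13, Sptb and Rhd (0.986 to 0.989), most of them genes of the red cell surface or skeleton. Nearest to Gata2, at a lower r of 0.808 to 0.813, were Npnt, Mapk6, Cerk, Hibadh and Glyr1, with log2 fold changes of -0.54 to -1.09 in the spleen at 7 d. Bcl11a on its main probe set had no close match, its nearest being Igfbpl1 at 0.730.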

How the data were processed

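Total RNA of 44 tissue samples was hybridised to Affymetrix mouse arrays, 1 array a sample. The authors deposited 1 table of linear intensity per probe set, made with RMA per the submitters' processing notes; its version and annotation are not given in the sources used here. RMA corrects background and normalizes arrays towards a common distribution, which can compress a change that shifts much of the transcriptome.

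Of 45101 probe sets, 64 controls were left out. The platform annotation gave 1 symbol for 34945, several for 932 and none for 9160, and 1 probe set (highest mean log2 value over all arrays) stood for each of 18193 genes. Values were analysed as log2(intensity + 1), which understates changes of dim genes, with no filter on low values. Groups followed the titles. limma 3.58.1 in R 4.3.3 was fitted per tissue (4 groups of liver, 4 of spleen, 2 of marrow), with contrasts between sets, two-sided tests and BH adjustment. Ratios to Gata2 were compared with exact permutation tests, for all genes at 7 d in the spleen and the marrow. The fits were tested on simulated data. The number of arrays limits the precision.

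All 10 factors were named in every set, with up to 4 called genes a direction from each pathway list in order of size, the 5 genes most like a factor, and marker genes beside a result. The factors, lists and tests were chosen with earlier results of these data known. The labels state no pairing of arrays. Deviations from group means of same-numbered arrays correlated weakly in all 3 pairs of the liver at 4 h (r = 0.132 to 0.282). Elsewhere r ran from -0.381 to 0.543, with some pairs above those of the liver. Whether the arrays are paired is therefore not known. The values given are from the fit without the replicate number as a block. Adding the block changed no call in the liver at 4 h. Alternatives changed the pseudocount, normalization, probe set, spread, filter, samples fitted, array weights, pairing and each array in turn.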

Additional observations from a re-analysis of the deposited data

Results flagged for a closer look

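In 14 of 90 combinations of factor and group with at least 4 arrays, 1 array stood far from the rest by Dixon's test. Chance alone gives about 1 in 20 for values without ties, but some liver combinations held tied values. The combinations share arrays. In the spleen at 7 d, vehicle replicate 1 stood low for Nfe2 (298), Tal1 (324), Lmo2 (2249) and Sox6 (74.9), and 2BE replicate 5 stood low for Nfe2 (3605) and Sox6 (2566). In the liver at 4 h, single 2BE arrays stood low: replicate 1 for Gata1 (28.1), replicate 2 for Lmo2 (109), replicate 3 for Gfi1b (26.0) and replicate 4 for Sox6 (122) and Bcl11a (160). For Gfi1b the other 3 arrays held the same value. In the liver at 7 d, vehicle replicate 1 stood high for Nfe2 (28.9) and 2BE replicate 4 for Tal1 (32.4), where the other 4 arrays held the same value, while 2BE replicate 5 stood low for Zfpm1 (461).

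The response to 2BE differed between sets in 26 of the 30 limma contrasts of a factor. Of all genes, 51.3% passed between 7 d and 4 h in the spleen, 43.5% between marrow and spleen and 54.2% between spleen and liver. Between 7 d and 4 h in the spleen the log2 difference was 2.51 for Gata1, -0.38 for Gata2, 2.96 for Klf1, 3.17 for Nfe2, 2.64 for Tal1, 1.35 for Lmo2, 2.27 for Zfpm1, 1.75 for Gfi1b and 3.27 for Sox6. Between marrow and spleen at 7 d it was -2.13 for Gata1, -2.73 for Klf1, -2.71 for Nfe2, -2.33 for Tal1, -0.97 for Lmo2, -2.06 for Zfpm1, -1.88 for Gfi1b and -3.02 for Sox6. Between spleen and liver at 7 d it was 2.49 for Gata1, -0.29 for Gata2, 2.97 for Klf1, 2.96 for Nfe2, 2.74 for Tal1, 1.20 for Lmo2, 2.29 for Zfpm1, 2.51 for Gfi1b and 3.85 for Sox6. The contrasts share spleen arrays and are not independent of each other.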

How the results depend on the processing

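Under every alternative run, the rises of the 8 factors other than Gata2 and Bcl11a in the spleen and the marrow at 7 d kept their direction and their call. The count of factors called in those sets stayed at 9 when each array was left out. Gata2 in the spleen at 7 d is the exception among the called factors: after a further quantile normalization its log2 fold change was -0.18 (limma BH-adjusted p = 0.0768), its difference from 4 h -0.20 (0.198) and from the liver -0.14 (0.229). Under that setting Bcl11a rose in the spleen at 7 d (0.23, adjusted p = 0.0137) and against the liver (0.29, 0.0281). The replicate block gave -0.29 for the Gata2 difference between spleen and liver (0.0636). With the replicate block, an exact sign-flip test of same-numbered pairs, 0 ratios to Gata2 passed in the spleen and 0 in the marrow at 7 d (smallest p = 0.0625, the least 5 pairs allow). The block changed no other call.

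Bcl11a depended on the probe set. With the mean of its probe sets its log2 fold change was -0.0086 (spleen 4 h), 0.013 (liver 7 d), -0.44 (spleen 7 d) and 0.052 (marrow), and its differences were -0.43 (spleen 7 d minus 4 h), 0.49 (marrow minus spleen) and -0.45 (spleen minus liver). With the probe set of highest linear mean, an alternative chosen after seeing the data, the fold change was -0.099 (spleen 4 h), 0.023 (liver 7 d) and -1.02 (spleen 7 d), and the differences in the same order -0.92, 0.76 and -1.04. Other signs turned for values that did not pass in either setting. Bcl11a was at 0.0081 with the replicate block in the liver at 4 h and at 0.024 (quantile) and 0.0060 (array weights) in the marrow. Lmo2 was at -0.014 (quantile) in the liver at 7 d. Gfi1b was there at -0.0067 (array weights) and -0.035 (replicate block). Gata2 between marrow and spleen was at -0.043 (mean of probe sets) and -0.075 (quantile).

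With single arrays left out, the count called in the spleen at 4 h ran from 0 to 1 (Gfi1b, 0.54 to 1.02), the 1 being without vehicle replicate 3. Ranges that crossed or reached 0 were -0.14 to 0 (Lmo2, liver 4 h), -0.069 to 0.0081 (Bcl11a, liver 4 h), -0.21 to 0.38 (Gata1, spleen 4 h), -0.38 to 0.18 (Nfe2, spleen 4 h), -0.072 to 0.51 (Tal1, spleen 4 h), -0.0087 to 0.078 (Bcl11a, spleen 4 h), -0.016 to 0.11 (Nfe2, liver 7 d), -0.049 to 0.045 (Lmo2, liver 7 d), -0.035 to 0.094 (Gfi1b, liver 7 d), -0.030 to 0.0018 (Bcl11a, marrow) and -0.019 to 0.070 (Gata2, marrow minus spleen). The causes of these changes were not tested. Dim liver signal limits what these values can show.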
